A study of Mus musculus with 14 samples.

Results

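Npas4 and Nr4a1 are activity-induced transcription factor genes, and the regions described here are all those of the deposited table that overlap chr19:4950000-5025000 (the Npas4 window, 75 kb) or chr15:101050000-101135000 (the Nr4a1 window, 85 kb) on the mm9 build. They are 19 of 191271 regions, 7 in the Npas4 window and 12 in the Nr4a1 window, and were chosen by position only. Accessibility was measured by ATAC-seq (a transposase inserts sequencing adapters where DNA is open) and is given as RPKM (reads per kilobase of region and per 1000000 library reads) in 14 libraries. The nuclei came from mouse hippocampus and had been sorted after staining for the neuronal marker NeuN, for Arc and for GFP. All mice were of the cross ArcCreERT2 with R26R-STOP-floxed- eYFP (yellow fluorescent protein), genotype +/+. In them a tamoxifen-dependent Cre at the Arc locus switches on a fluorescent reporter in cells that express Arc, so the labelling depends on Arc activity and on the timing of the drug. All received 4-hydroxytamoxifen before contextual fear conditioning and a foot shock on day 0, after housing in the dark.

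The 4 groups are Basal (n = 4) and Early (n = 3), both collected on day 0 without recall, Late (n = 4), collected on day 5 without recall, and Reactivated (n = 3), recalled on day 5, whose replicates 1, 2 and 3 are labelled as collected on day 5, day 6 and day 7. The treatment given for Basal does not differ from that for Early. The titles alone separate them, and the labels do not say what sets Basal apart. The labels give no age, and each library pools tissue of several mice. Nothing in the labels ties a library to particular mice. A p-value here therefore sets a difference between groups only against the spread of libraries within groups, which may be technical. In the fit of all 14 libraries that spread was estimated from the 4 groups together. In pooled nuclei, fewer nuclei with an open region and a less open region in every nucleus cannot be told apart. The regions carry no gene names, so the labelled cell type was not checked against marker genes, and other activity-induced genes were not analysed here.

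Npas4 encodes a neuron-restricted bHLH-PAS factor that is induced by calcium entry after membrane depolarization, activates Bdnf among other targets, and takes part in contextual memory in the hippocampus. Nr4a1 (also called Nur77) encodes an orphan nuclear receptor that is likewise induced within a short time of neuronal activity, in part through CREB, and shapes synapse distribution and memory. Both are immediate-early genes: signalling kinases act on factors such as CREB that already sit at their promoters and enhancers, so no new protein is needed for induction.

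The promoters of both genes are shown because activity-dependent induction of both genes is known to act in part through CREB sites there. The sequences are from RefSeq (GRCm38.p6) and hold the 250 bases before the annotated start, 5′ to 3′ on the gene's strand. Npas4 is at chr19:4989972-4990221 on the minus strand, and Nr4a1 at chr15:101266596-101266845 on the plus strand of that build. These positions are of another build than the accessibility table and cannot be set beside its coordinates, so which region holds which promoter is not stated here. Capitals mark TGACG, the core of the cAMP response element that CREB binds, on either strand (the other strand reads CGTCA).
Npas4: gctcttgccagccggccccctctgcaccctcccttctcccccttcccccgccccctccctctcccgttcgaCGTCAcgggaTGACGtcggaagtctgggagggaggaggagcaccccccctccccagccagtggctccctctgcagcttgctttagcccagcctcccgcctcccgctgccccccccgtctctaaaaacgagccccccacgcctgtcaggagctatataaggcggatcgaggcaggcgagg
Nr4a1: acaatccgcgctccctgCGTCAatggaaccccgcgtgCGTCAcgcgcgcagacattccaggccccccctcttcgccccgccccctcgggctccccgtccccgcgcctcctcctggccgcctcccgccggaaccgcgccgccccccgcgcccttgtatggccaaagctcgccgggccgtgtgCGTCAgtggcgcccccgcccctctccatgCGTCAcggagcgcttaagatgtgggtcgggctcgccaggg

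The Npas4 promoter holds 2 matches to TGACG, at bases -179 to -175 and -169 to -165 counted from the start, on opposite strands. The Nr4a1 promoter holds 4, at -233 to -229, -213 to -209, -69 to -65 and -40 to -36, all on the strand opposite to the gene. Of 32851 promoters of the same length, 17.8% hold at least 1 such match, 3.90% at least 2 and 0.137% at least 4. The full element TGACGTCA, which contains the core, was found in neither promoter and in 1.55% of all. AP-1 sites (TGANTCA, in 6.75% of all), E-boxes (CACGTG, in 6.02%), CArG boxes (1.47%) and MEF2 sites (2.92%) were not found in either. GC content was 68.8% for Npas4 and 74.4% for Nr4a1, against a median of 52.4% over all promoters. These are letter matches and do not show binding.

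Across the libraries, 46134253 to 56251676 total reads were recovered from the RPKM values. The Late libraries held 46134253 to 47375212, Reactivated replicate 1 held 56251676 and the others 54257222 to 54269492. Late thus differed from every other group in total reads as well. Of each library's reads, 13.2% to 27.8% lay in regions. This share was 13.8%, 27.8% and 18.1% in Early replicates 1, 2 and 3, wider than in any other group. Because it moves RPKM at most regions, values are also given after median-of-ratios scaling, which divides each library by its typical ratio to the mean of all libraries. The median log2 fold change of all 172143 tested regions against Basal was 0.23 in Early, 0.28 in Late and 0.39 in Reactivated as deposited, and 0.04 at most after this scaling. Averaging the Late libraries to 1 sample was one of the alternatives tried.

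At Npas4, accessibility was lowest in Early and highest in Reactivated. Summed over the 7 regions, the Npas4 window took 6.47, 4.28, 4.92 and 5.90 reads per 1000000 library reads in Basal replicates 1 to 4, and 1.95, 4.68 and 4.16 in Early replicates 1 to 3. It took 6.25, 7.15, 7.98 and 7.53 in Late replicates 1 to 4, and 13.9, 9.21 and 9.60 in Reactivated replicates 1 to 3. The Reactivated libraries all lay above those of every other group, while Early overlapped Basal through replicate 2. As a share of the reads in regions, Early no longer overlapped Basal: Early had 18.0 ± 4.53 reads per 1000000 reads in regions (SD, n = 3) and Basal 34.4 ± 3.30 (n = 4), while Late had 37.7 ± 2.70 (n = 4) and Reactivated 47.2 ± 9.49 (n = 3). The sums rest on 106 to 784 reads per library.

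The Nr4a1 window showed a different order. It took 19.6, 12.5, 14.2 and 17.0 reads per 1000000 in Basal, 7.70, 16.4 and 12.3 in Early, 14.1, 16.2, 14.2 and 15.9 in Late and 29.9, 16.2 and 21.3 in Reactivated, in replicate order, so Reactivated replicate 2 stood at the level of Late. As a share of reads in regions Early had 61.0 ± 6.42 reads per 1000000 (SD, n = 3), Late 78.9 ± 6.40 (n = 4), Reactivated 96.5 ± 25.0 (n = 3) and Basal 101 ± 8.61 (n = 4). On that scale Basal lay above Early and Late without overlap, and Early was the lowest group. The sums rest on 418 to 1681 reads per library.

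**Figure D1:**
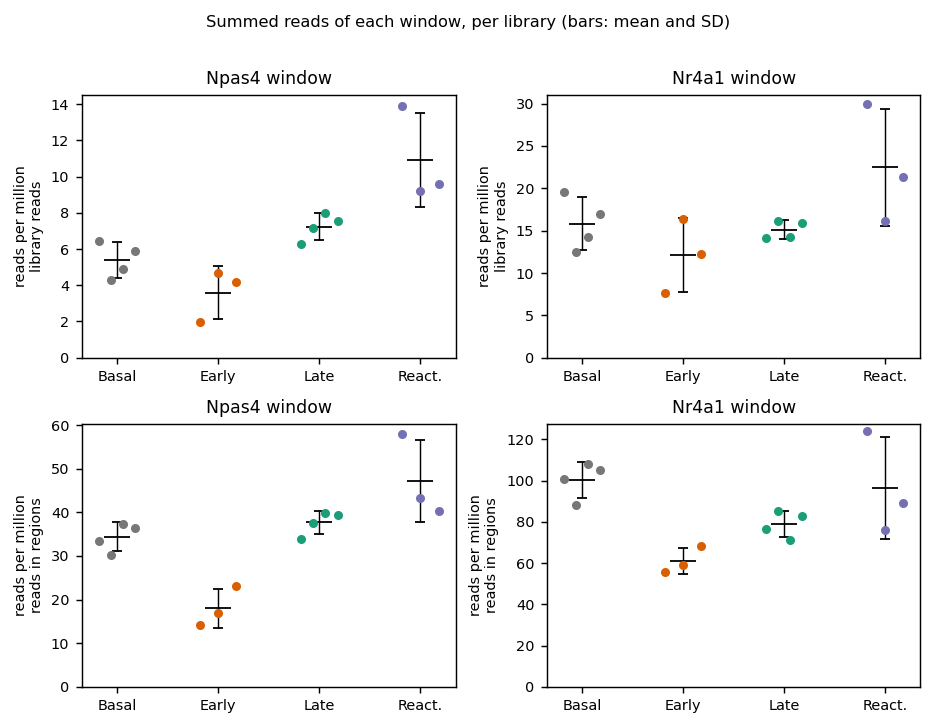
Summed reads of the regions of each window in each library (points), with group mean and SD (bars), as reads per 1000000 library reads (upper panels) and as reads per 1000000 reads in regions (lower panels). On the lower scale the 3 Early libraries sit below all others in both windows, at 14.1 to 23.0 for Npas4 and 55.7 to 68.1 for Nr4a1.

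The 7 Npas4 regions are numbered in order along chromosome 19 and were 213 to 1191 bases long. The highest by mean RPKM was region 6 (chr19:5001709-5002392), at the 92.4th percentile of all regions. Its RPKM was 1.92, 1.24, 1.35 and 1.81 in Basal, 0.513, 1.81 and 1.16 in Early, 2.59, 3.17, 2.87 and 3.02 in Late and 5.99, 2.73 and 3.56 in Reactivated. Late and Reactivated lay above Basal and Early without overlap, and Reactivated replicate 1 was the highest library. The region was higher in Reactivated than in Early by 1.48 ± 0.30 on the log2(RPKM + 0.5) scale (limma's SE, Benjamini-Hochberg adjusted p = 0.0278 over all tested regions) and higher than in Basal by 1.09 ± 0.28 (limma, adjusted p = 0.0102). Late exceeded Basal by 0.73 ± 0.26 (limma, adjusted p = 0.0396). Within its group the region ranked at the 78.3rd percentile of regions in Basal, the 36.1st in Early, the 95.9th in Late and the 96.6th in Reactivated.

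Region 1 (chr19:4961965-4962557) also had its lowest values in Early and its highest in Reactivated. Its RPKM was 1.43, 1.03, 0.840 and 1.18 in Basal, 0.592, 0.872 and 0.872 in Early, 1.71, 2.05, 1.82 and 2.19 in Late and 3.78, 2.58 and 2.43 in Reactivated. Late lay above both day 0 groups and Reactivated above all, while a single Basal library fell inside the Early range. It was higher in Reactivated than in Early by 1.41 ± 0.24 (limma, adjusted p = 0.0225) and than in Basal by 1.07 ± 0.23 (adjusted p = 0.00418), and higher in Late than in Basal by 0.60 ± 0.21 (adjusted p = 0.0337). Its rank was the 12.6th percentile in Early, the 54.5th in Basal, the 80.2nd in Late and the 91.1st in Reactivated.

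Regions 2, 3 and 4 lie between them. Region 2 (chr19:4989357-4990303, 946 bases) had 1.36, 0.993, 1.17 and 1.31 RPKM in Basal, 0.468, 0.916 and 0.643 in Early, 1.18, 1.12, 1.67 and 1.30 in Late and 2.39, 1.85 and 1.27 in Reactivated. Every Early library lay below every library of the other groups. Reactivated exceeded Early by 0.98 ± 0.24 (limma, adjusted p = 0.0437), whereas Early against Basal gave -0.55 ± 0.22 and did not pass (adjusted p = 0.0999). After median-of-ratios scaling the 3 Early values were 0.583, 0.644 and 0.644, against 1.27 to 1.59 in Basal, a log2 difference of -0.79 ± 0.18 that passed (limma, adjusted p = 0.0101).

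Region 3 (chr19:4992932-4993213) had 1.84, 1.18, 0.853 and 1.97 RPKM in Basal and 0.328, 0.853 and 1.11 in Early. It had 1.53, 1.00, 2.70 and 2.12 in Late and 3.48, 2.69 and 1.84 in Reactivated. Reactivated lay above Early without overlap, by 1.35 ± 0.32 (limma, adjusted p = 0.0405), and the Late libraries spread across both. Region 4 (chr19:4994095-4994377) had 0.653, 0.980, 0.784 and 1.76 RPKM in Basal, 0.523, 0.457 and 1.05 in Early, 1.91, 1.77, 2.25 and 1.58 in Late and 3.03, 1.37 and 2.29 in Reactivated. Here Basal replicate 4 stood inside the Late range. Reactivated exceeded Early by 1.20 ± 0.28 and Basal by 0.82 ± 0.27 (limma, adjusted p = 0.0404 and 0.0268), and Late exceeded Basal by 0.66 (adjusted p = 0.0448). After median-of-ratios scaling region 4 passed in none of these, at 1.02 over Early and 0.45 over Basal in Reactivated (limma, adjusted p = 0.0582 and 0.238).

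Region 7 (chr19:5023584-5024775), the longest of the 7, was highest in Reactivated. It had 1.73, 0.913, 1.44 and 1.19 RPKM in Basal, 0.464, 1.04 and 1.05 in Early, 0.940, 1.29, 1.36 and 1.21 in Late and 2.39, 2.07 and 2.60 in Reactivated. The 3 Reactivated libraries lay above the other 11, by 1.11 ± 0.25 over Early (limma, adjusted p = 0.0343) and 0.67 ± 0.23 over Basal (adjusted p = 0.0364). After median-of-ratios scaling the difference from Basal was 0.28 and did not pass (limma, adjusted p = 0.294). Against Late the difference of 0.75 ± 0.23 did not pass (adjusted p = 0.257). Region 5 (chr19:4999489-4999702) passed in none of the 6 comparisons. Its Early libraries stood at 0.0865, 2.16 and 1.82 RPKM, the first being a single read, which is the lowest value the table lists. These values are printed although the region passed nowhere, and were chosen after they were seen.

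**Figure D2:**
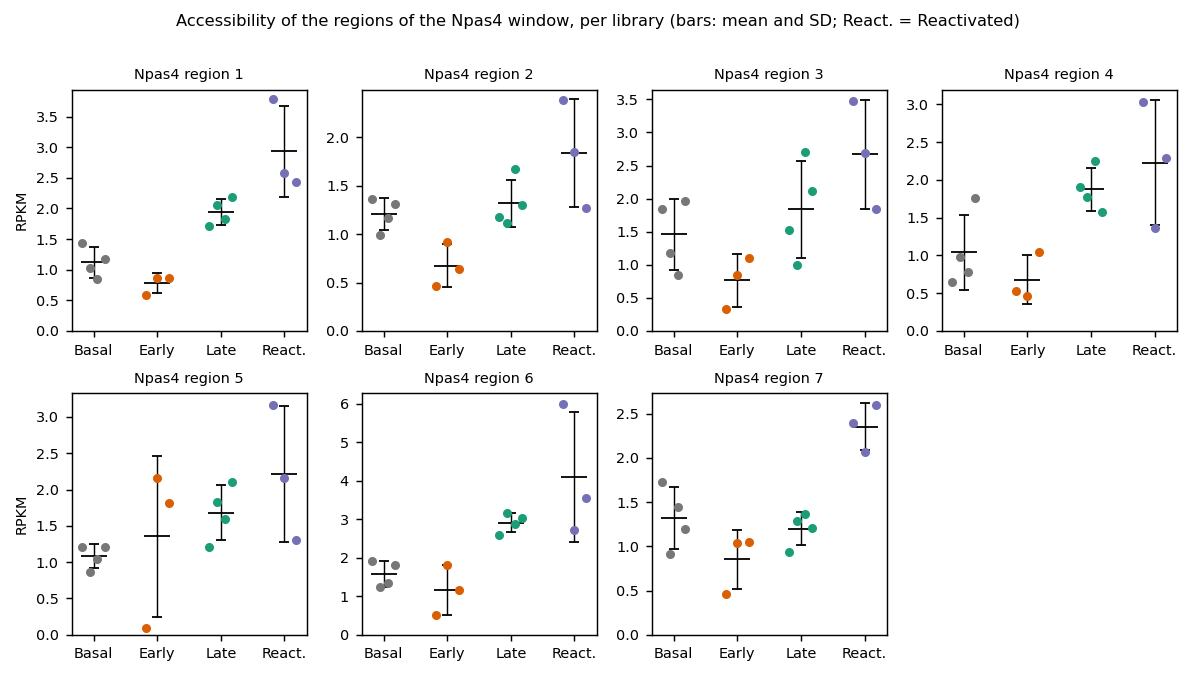
RPKM of the 7 regions of the Npas4 window in each library (points), with group mean and SD (bars); each panel has its own axis from 0. Reactivated has the highest mean in all 7 regions, from 1.83 to 4.09 RPKM, and Early the lowest in 6, the exception being region 5.

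The 12 Nr4a1 regions, numbered along chromosome 15, were 200 to 1317 bases long and did not share 1 order of the groups. The highest was region 7 (chr15:101076504-101077234), at the 98.0th percentile of all regions. Its RPKM was 4.42, 2.65, 2.65 and 3.94 in Basal, 1.89, 5.12 and 2.10 in Early, 2.66, 3.27, 3.27 and 3.03 in Late and 7.62, 2.80 and 5.55 in Reactivated. The groups overlapped and it passed in no comparison. It stayed between the 94.8th and 98.4th percentile in every group.

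Regions 9 and 10, which lie side by side, were highest in Basal. Region 9 (chr15:101084370-101084997) had 3.17, 2.15, 2.38 and 2.00 RPKM in Basal and 0.970, 1.26 and 0.970 in Early. It had 0.653, 1.49, 1.11 and 1.26 in Late and 2.44, 0.441 and 1.91 in Reactivated. All Basal libraries lay above all Early and Late libraries, and Reactivated spanned both levels. The difference was -0.86 ± 0.28 for Late against Basal (limma, adjusted p = 0.0252) and -0.89 ± 0.30 for Early against Basal, which did not pass (adjusted p = 0.0548). After median-of-ratios scaling both passed, at -1.17 ± 0.26 (limma, adjusted p = 0.00428) and -1.15 ± 0.28 (adjusted p = 0.0144). On that scale Reactivated was also below Basal, by -1.01 ± 0.28 on the log2 scale (limma, adjusted p = 0.0211), against -0.62 ± 0.30 as deposited (adjusted p = 0.114).

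Region 10 (chr15:101085302-101085502, 200 bases) had 3.32, 1.11, 2.21 and 2.30 RPKM in Basal, 0.553, 1.20 and 0.737 in Early, 0.754, 0.975, 1.37 and 0.638 in Late and 1.24, 0.921 and 1.66 in Reactivated. Basal replicate 2 stood among the other groups, and the region rests on 6 to 36 reads per library. It fell by 1.00 ± 0.27 in Early and by 0.89 ± 0.25 in Late against Basal (limma, adjusted p = 0.0223 and 0.0120). Region 10 was the only 1 of the 18 tested regions to pass in Early against Basal as deposited, where 1.44% of all tested regions were lower. Without Basal replicate 1, Basal replicate 3, Early replicate 2 or Early replicate 3 it did not pass (limma, adjusted p up to 0.0661 over all alternatives). Nor did it pass with voom weights on the recovered reads or in a fit of Early and Basal alone. In rank, regions 9 and 10 stood at the 94.5th and 92.7th percentile in Basal, the 29.5th and 14.9th in Early, the 32.2nd and 18.5th in Late and the 59.5th and 41.0th in Reactivated.

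Regions 1 and 6 were instead highest in Reactivated. Region 6 (chr15:101071233-101071699) had 2.25, 1.78, 1.70 and 1.62 RPKM in Basal, 1.11, 2.14 and 1.70 in Early, 3.56, 2.60, 2.13 and 3.65 in Late and 4.46, 3.32 and 4.35 in Reactivated. Reactivated lay above both day 0 groups without overlap, by 1.10 ± 0.27 over Early and 0.96 ± 0.25 over Basal (limma, adjusted p = 0.0451 and 0.0113). Region 1 (chr15:101052108-101052500) had 2.44, 1.08, 2.02 and 1.46 RPKM in Basal, 0.940, 2.44 and 2.30 in Early, 2.36, 3.15, 2.91 and 3.47 in Late and 4.63, 2.21 and 3.90 in Reactivated. It was higher in Reactivated than in Basal by 0.85 ± 0.30 (limma, adjusted p = 0.0372), with overlap through Reactivated replicate 2. After median-of-ratios scaling this was 0.44 and did not pass (limma, adjusted p = 0.199).

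Of the remaining 7 regions of the Nr4a1 window 6 were tested, and these passed in no comparison as deposited. Region 11 (chr15:101096641-101097644) had a mean of 3.53 ± 1.24 RPKM in Reactivated (SD, n = 3), 2.38 ± 0.506 in Basal (n = 4), 1.90 ± 0.715 in Early (n = 3) and 1.86 ± 0.220 in Late (n = 4). After median-of-ratios scaling it was lower than Basal by 0.56 in Early and 0.60 in Late (log2 differences of -0.56 and -0.60, limma, adjusted p = 0.0440 and 0.0132). Region 8 (chr15:101079093-101079443) was the weakest, at the 4.35th percentile and 2 to 27 reads per library, and fell under the filter that leaves out the lowest 10% of regions. Regions 2, 3, 4, 5 and 12 had group means between 1.01 and 2.87 RPKM.

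**Figure D3:**
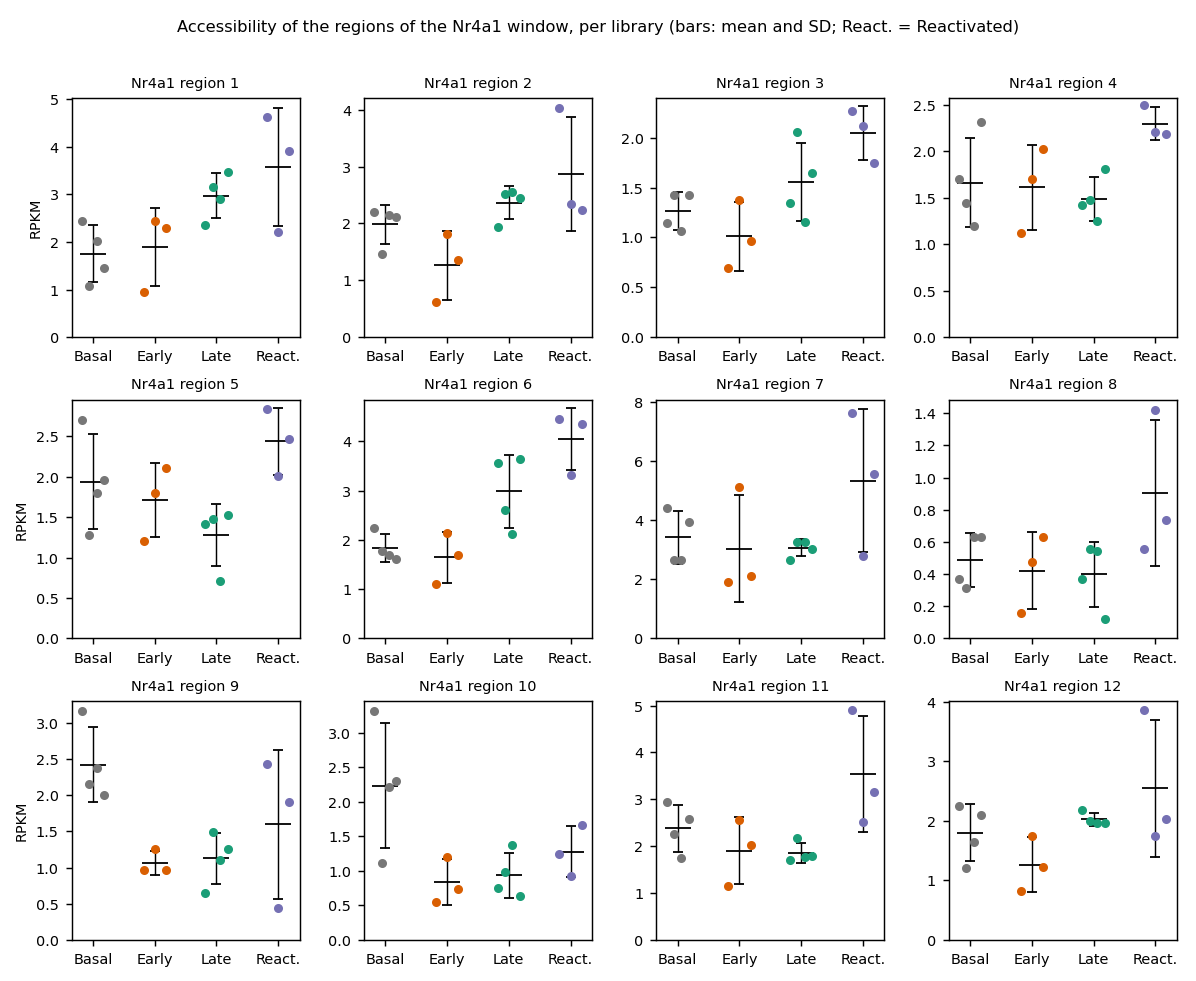
RPKM of the 12 regions of the Nr4a1 window in each library (points), with group mean and SD (bars); each panel has its own axis from 0. Regions 9 and 10 have their highest mean in Basal, at 2.42 and 2.23 RPKM, and the other 10 regions in Reactivated. After median-of-ratios scaling (not drawn) 4 of the 12 were highest in Basal and 8 in Reactivated.

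For Reactivated against Early, of the 18 tested regions 7 were higher in Reactivated, 6 of the 7 in the Npas4 window and 1 of 11 in the Nr4a1 window, where 0.944% of all tested regions were higher (limma, adjusted p under 0.05). All 18 had a positive log2 fold change, with a median of 1.20 at Npas4 and 0.75 at Nr4a1 beside 0.11 over all tested regions. Groups did not overlap in 10 of the 18, against 10.6% of all tested regions. After median-of-ratios scaling 5 Npas4 and 2 Nr4a1 regions were higher, with 1.88% of all. On that scale the count was 1 without Early replicate 1 or Reactivated replicate 1, with 0.0761% and 0.0674% of all passing in either direction. It was 4 without Reactivated replicate 2 or 3, with 1.17% and 0.877% of all. The number of calls depended on single libraries, among the members as over the whole table. None of the 18 passed without Early replicate 1, Early replicate 3 or Reactivated replicate 1. There 0.00349%, 0.0279% and 0.0540% of all tested regions passed in either direction. At an unadjusted p under 0.05 (limma) the member counts were 9, 13 and 9. Here and below, the share of all regions at the unadjusted threshold is not given, so such counts have no background beside them. Without Reactivated replicate 3 the count of calls was 1 (0.0546% of all), without Reactivated replicate 2 it was 3 (0.354%), and without any 1 of the Late libraries 3 to 4 (0.580% to 0.705%). Without Early replicate 2 it was 13, and 17.3% of all passed. When the mean of the 4 Late libraries stood in for them in the fit, the limma count was 0, with 12 at an unadjusted p under 0.05 and 0.00755% of all regions passing. With voom weights on the recovered reads of all 14 libraries the count was 8, and 2.73% of all passed.

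For Reactivated against Basal, 6 of 18 regions were higher, 4 at Npas4 and 2 at Nr4a1, and 24.3% of all tested regions were higher too. The median log2 fold change was 0.72 at Npas4 and 0.41 at Nr4a1 beside 0.39 over all. After median-of-ratios scaling these medians were 0.35, 0.00 and 0.04. Then 3 regions were higher, with 8.92% of all, namely Npas4 regions 1 and 6 and Nr4a1 region 6, at 0.69, 0.68 and 0.54 (limma, adjusted p = 0.0119, 0.0291 and 0.0423). Nr4a1 regions 9 and 10 were lower on that scale, with 10.7% of all. As deposited, the count was 3 without Basal replicate 3 or Reactivated replicate 1, where 16.1% and 18.2% of all passed in either direction, and 2 without Reactivated replicate 3 (11.0%). Once each library's percentage of reads inside regions entered the model, 0 members and 0 of all 172143 regions passed (limma, 5 members at an unadjusted p under 0.05). For Late against Basal, 3 Npas4 regions were higher (1, 4 and 6) with 23.9% of all tested regions higher, and 2 Nr4a1 regions were lower (9 and 10) with 6.03% of all lower. After median-of-ratios scaling 0 of the 7 Npas4 regions were higher and 4 Nr4a1 regions (5, 9, 10 and 11) were lower, where 16.4% of all tested regions were lower. The 3 Npas4 regions then stood at 0.31, 0.37 and 0.41 (limma, adjusted p = 0.141, 0.253 and 0.110). As deposited, 5 regions passed, where 30.0% of all tested regions passed in either direction. The count was 1 without Basal replicate 3 (20.5% of all) or Late replicate 3 (34471 of all 172143 regions). It was 2 without Basal replicate 2 (21.7%) or Late replicates 1, 2 or 4 (23.0%, 23.0% and 22.8%). It was 3 without Basal replicate 4 (24.5%) and 4 without Basal replicate 1 (29.2%). Without Early replicate 1 or 2 it was 7 (35.0% and 38.1%).

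For Early against Basal, 17 of the 18 regions had a negative log2 fold change although the median of all tested regions was positive (0.23). The medians were -0.39 at Npas4 and -0.24 at Nr4a1. After median-of-ratios scaling 10 regions were lower, Npas4 regions 1, 2, 3, 6 and 7 and Nr4a1 regions 2, 9, 10, 11 and 12, with 6.85% of all tested regions lower. Among tested regions within 1 Mb on either side, 77.7% around Npas4 and 19.3% around Nr4a1 were lower too. Groups did not overlap in 12 of 18 on that scale, against 11.5% of all. With every library kept, 15.0% of all tested regions passed in either direction on that scale. Leaving out 1 library at a time after the scaling gave 3 to 10 lower regions. The count was 3 without Early replicate 2 (4.58% of all passed) and 4 without Early replicate 1 (17.9%). It was 5 without Basal replicate 1 or 4 (12.3% and 11.5%). In Late against Early and Reactivated against Late, 8 and 5 of the 18 regions stood at an unadjusted p under 0.05 (limma). The share of all tested regions at that threshold is not given. After adjustment 0 of the 18 passed in either comparison, where 0.414% and 0.231% of all tested regions passed. With voom weights 1 passed in Late against Early (0.346% of all) and 0 in Reactivated against Late (0.162%). Without Early replicate 2 the limma count in Late against Early was 5, where 6.24% of all tested regions passed. In Late against Early the largest differences were at Npas4 regions 6, 4 and 1, at 1.12, 1.04 and 0.94 (adjusted p = 0.0806, 0.0824 and 0.0628). The comparisons share libraries and are given side by side only. An uncalled region is not shown to be equal between groups, since groups of 3 or 4 libraries leave many true differences below the threshold.

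**Figure D4:**
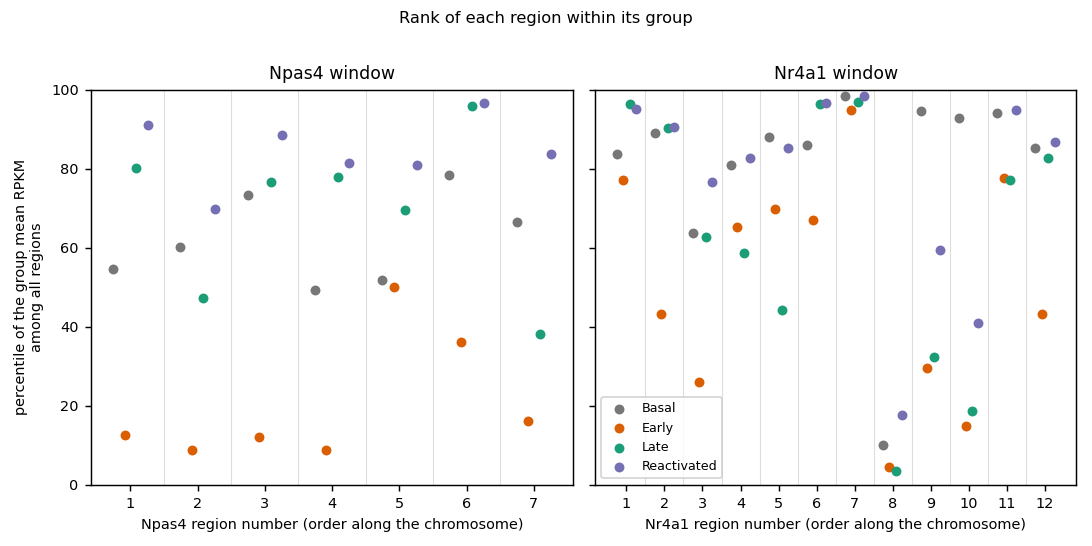
Percentile of each region's group mean RPKM among all regions, by group (colours), for the Npas4 window (left) and the Nr4a1 window (right), with regions in order along the chromosome. Npas4 regions 1 to 4 stand between the 8.78th and 12.6th percentile in Early and above the 47th in the other groups, while Nr4a1 regions 9 and 10 are high in Basal only.

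By rank of the group means, Npas4 regions 2 and 4 both stood at the 8.78th percentile in Early, against the 60.2nd and 49.2nd in Basal, the 47.2nd and 77.9th in Late and the 69.8th and 81.3rd in Reactivated. Region 5 was the exception, at the 49.9th percentile in Early and the 51.8th in Basal, through Early replicates 2 and 3. Among single libraries, Early replicate 1 was the lowest of 14 in 15 of 19 regions and Reactivated replicate 1 the highest in 15 of 19. After median-of-ratios scaling these counts were 11 and 12. How often these libraries were extreme over all regions was not counted, so the counts are not shown to be particular to these windows.

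In the 1 Mb on either side of the Npas4 window, 41 of 103 tested regions were higher in Reactivated than in Early (39.8%, limma), all 103 had a positive log2 fold change and their median was 0.95, beside 1.20 in the window. For Early against Basal the flanks stood lower than the window itself, with a median of -0.58 against -0.39 and 34 of 103 called lower, while the rest of chromosome 19, flanks included, had a median of 0.25. The low Early values thus extended through the flanks. For Reactivated against Basal the flanks had a median of 0.38, near the 0.39 over all regions, beside 0.72 in the window. After median-of-ratios scaling these were 0.01 in the flanks and 0.35 in the window. For Late against Basal the medians were -0.03 in the flanks and 0.45 in the window. The differences between window and flanks were not tested.

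Around Nr4a1 the median of the flanks for Reactivated against Early was 0.54, beside 0.75 in the window, with 0 of 114 regions called in limma as deposited and 1 after median-of-ratios scaling. For Early against Basal it was -0.17 beside -0.24, and for Late against Basal 0.13 beside -0.10. After the scaling 22 of 114 flank regions (19.3%) and 5 of 11 in the window (45.5%) were lower in Early than in Basal. By RefSeq's order of protein-coding genes (GRCm38.p6), Npas4 lies between Mrpl11, a mitochondrial ribosomal protein gene, and Slc29a2, a nucleoside transporter gene, and Nr4a1 between Grasp, a scaffold protein gene, and Atg101, an autophagy gene. Which of the numbered regions belong to these neighbours was not determined. The Npas4 window held 93.3 regions per Mb and its flanks 57.5, with 59.1 on chromosome 19. The Nr4a1 window held 141 and its flanks 62.0, with 84.3 on chromosome 15. All tested regions of at least 592 bases (the median Npas4 length) had a median of 0.19 in Reactivated against Early and 0.25 in Early against Basal.

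**Figure D5:**
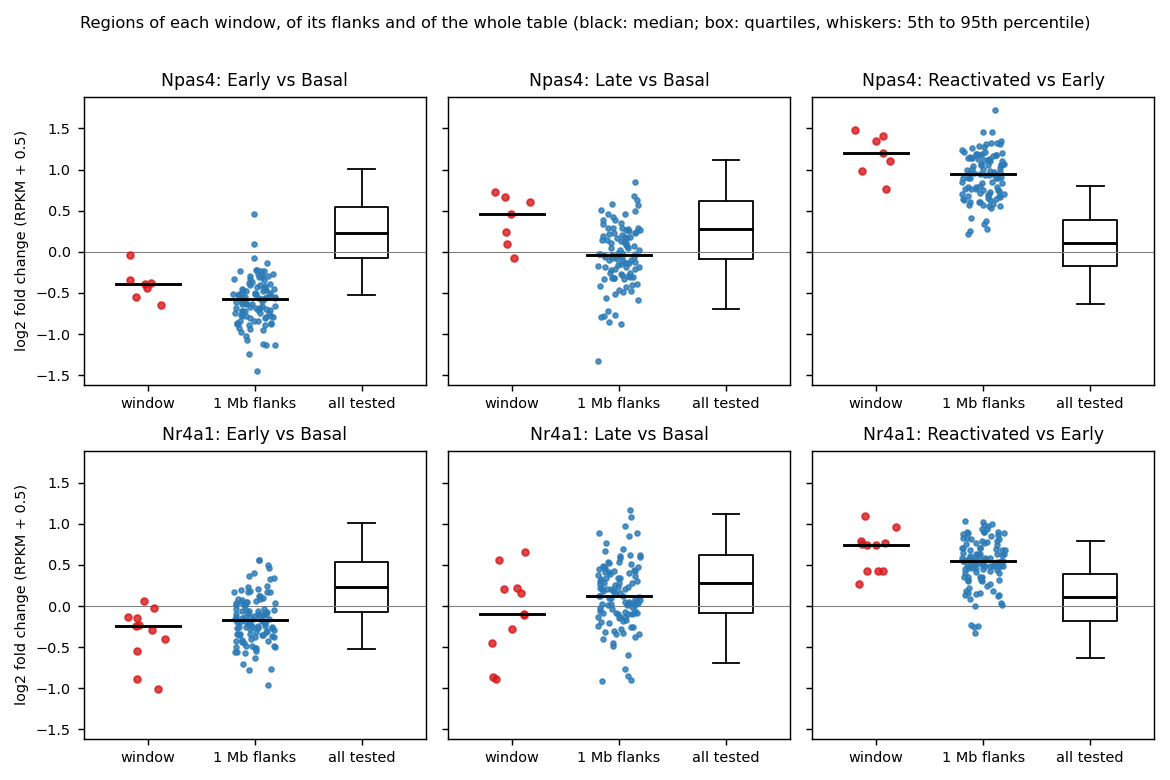
Log2 fold change on the log2(RPKM + 0.5) scale of each tested region in the window (red), in the 1 Mb on either side (blue) and in the whole table (box: quartiles, whiskers: 5th to 95th percentile), for 3 comparisons; black lines are medians. Around Npas4 the flank and window medians were -0.58 and -0.39 in Early against Basal and 0.95 and 1.20 in Reactivated against Early. In Late against Basal they were further apart, at -0.03 and 0.45.

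The regions elsewhere whose values followed the highest region of each window most closely were sought over the 14 libraries, by Pearson's r of log2(RPKM + 0.5). For Npas4 region 6 these were chr11:101413127-101414472 (r = 0.988), chr17:5189298-5190343 (0.977) and chr9:108039182-108040329 (0.976). The first had 1.98, 1.51, 2.98 and 3.76 RPKM in Basal, Early, Late and Reactivated (group means). For Nr4a1 region 7 they were chr11:121248879-121250251 (r = 0.958), chr2:6444387-6445392 (0.958) and chr13:52596844-52597408 (0.955), and the first had means of 2.95, 2.58, 2.81 and 4.52 RPKM. These are the highest of many correlations, and all points share library depth and the share of reads in regions. After median-of-ratios scaling the closest were chr11:101413127-101414472 again for Npas4 region 6 (r = 0.968) and chr1:192886270-192887235 for Nr4a1 region 7 (r = 0.936).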

How the data were processed

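The authors deposited 1 table of RPKM values for 14 ATAC-seq libraries, whose regions are on the mm9 build per the submitters' processing notes. Per the submitters' processing notes the authors also used Bowtie2 2.0, SAMtools, MACS2, DiffBind and DESeq2, named with no role or order. Peak calling settings, duplicate removal and any shift of cut sites, which affect region borders and read numbers, are not given in the sources used here. RPKM times region length gave whole multiples of 1 step per library for 100% of values (tolerance 0.01), from which reads and totals were recovered.

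Values were tested as log2(RPKM + 0.5), a scale that understates changes of low regions, after leaving out the 10% of regions with the lowest mean. A single fit of all 14 libraries was made with limma 3.58.1 under R 4.3.3 (robust, with an intensity trend), 2-sided, with Benjamini-Hochberg adjustment over 172143 regions per comparison and a threshold of 0.05. The fit was tested on simulated data with known changes. In the first simulation the share of the strongest changes recovered missed the mark set for it, and a second simulation, with changes placed in higher regions only, was added after that. The fit itself was left as it was. Weaker changes were rarely called in either, and false calls were few. Unlike the real libraries, the simulated ones did not differ in their share of reads in regions, so false calls from such differences were not tested. Medians and correlations were computed in Python 3.11.15 (pandas 2.3.3, numpy 2.4.6).

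Members and lists were chosen with earlier results of these data known. The value in every library is given for the 2 highest regions per window by mean RPKM and for regions called in any comparison, the others by range. Alternatives changed the pseudocount, filter, scaling, samples, covariates, weights and replicates. No genome of the mm9 build was used.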

Additional observations from a re-analysis of the deposited data

Results flagged for a closer look

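Groups of 4 libraries were examined for a library standing apart from the other 3, in 38 groups (Basal and Late in each of the 19 regions), of which chance flags about 1 in 20. In 3 of the 38 the gap to the nearest library, divided by the group's range, exceeded Dixon's 95% critical value for 4 samples. At Nr4a1 region 2 (chr15:101054378-101055343) Basal replicate 2 was low, at 1.47 RPKM against 2.12 to 2.20 in the other Basal libraries (ratio 0.895). At Nr4a1 region 5 (chr15:101069107-101069886) Late replicate 3 was low, at 0.705 RPKM against 1.41 to 1.53 (ratio 0.855). At Nr4a1 region 12 (chr15:101113678-101114995) Late replicate 1 was high, at 2.18 RPKM against 1.96 to 1.99 (ratio 0.834).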

How the results depend on the processing

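None of the 19 calls of single regions (a region in a comparison) turned its sign under any of the alternatives run, but all 19 lost their call under at least 1 of 27, Nr4a1 region 10 in Late against Basal only when the Late libraries were averaged. The number of regions called of 18 (19 without the filter) was 1 in Early against Basal, 5 in Late against Basal, 6 in Reactivated against Basal, 0 in Late against Early, 7 in Reactivated against Early and 0 in Reactivated against Late. Of all tested regions 12.4%, 30.0%, 29.1%, 0.414%, 1.36% and 0.231% passed in that order, in either direction. Percentages in brackets give this share under the other settings. For Early against Basal the number of members called was 10 after median-of-ratios scaling (15.0%) or scaling to reads inside regions (15.7%) and 8 after quantile normalization (12.2%). It was 4 with each library's share of reads inside regions as covariate (6.59%), 2 with a pseudocount of 1 (11.3%) and 0 in a fit of the 2 groups alone (3.42%). For Late against Basal the covariate gave 3 (21.7%). Averaging Late gave 0 there, where 0 of all 172143 regions passed and the fold changes stayed as they were (median 0.28 over all), since it leaves 1 sample in the arm, assumed to vary like the other groups. It therefore says nothing about these calls. For Reactivated against Basal the covariate gave 0, as it did over all regions. For Late against Early, median-of-ratios scaling and scaling to reads inside regions gave 2 (0.756% and 1.41%), quantile normalization 5 (2.25%), the covariate 6 (4.01%) and voom weights 1 (0.346%). For Reactivated against Early a fit of the 2 groups alone gave 3 and averaging Late 0, and that 2-group fit gave 1 for Reactivated against Late. Of all tested regions these 2-group fits called 0.468% for Reactivated against Early and 3.95% for Reactivated against Late. Leaving out 1 library at a time gave 0 to 2, 1 to 7, 2 to 7, 0 to 5, 0 to 13 and 0 to 0 in the order above. Against Basal the shares of all tested regions were 0.686% to 26.8% (Early), 34471 to 65525 of 172143 regions (Late) and 11.0% to 40.5% (Reactivated). For the other comparisons they were 0.102% to 6.24%, 0.00349% to 17.3% and 0.0935% to 0.425%. After median-of-ratios scaling, chosen as an alternative after seeing the data, leaving out 1 library gave 3 to 10 (9 without Reactivated replicate 3), 4 to 4, 2 to 5, 0 to 2, 1 to 7 and 0 to 0. The shares of all were then 4.58% to 17.9%, 22.5% to 33.8%, 8.26% to 23.3%, 0.0441% to 4.65%, 0.0674% to 9.32% and 0.0685% to 1.88%. Averaging Late on that scale leaves 1 sample in the arm, so its calls are not given. The causes were not tested, apart from fits with fewer libraries. With the replicate number as a block, 1, 2, 4, 0, 1 and 0 regions passed, beside 6.78%, 26.2%, 20.8%, 0.191%, 0.278% and 0.139% of all. The numbers are not shown to pair libraries: deviations from the group means of same-numbered libraries correlated at -0.26 to 0.069 in 19 pairs, 0 of them over 0.1, and 0 of 14 libraries correlated best with its own number. Depth limits the weakest regions, which held 1 to 38 reads (Npas4 region 5), 2 to 27 (Nr4a1 region 8) and 6 to 36 (Nr4a1 region 10) per library.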
